A study of Rattus norvegicus with 6 samples.

Results

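The genes described are 45 genes of the cell cycle and DNA replication: cyclins, cyclin-dependent kinases, replication factors and mitosis genes. They were found on the array through the transcript accession that the scanner files give for each probe. A named probe was present for 42 of the 45, out of 15645 named genes in all, and 41 had a probe bright enough to test. RNA came from renal cortex of Sprague-Dawley rats (Crl:CD(SD), all male, 5 weeks old at purchase) and was measured on 1-colour Agilent arrays, one for each animal. In the treated group 3 rats were given thiobis(6-tert-butyl-m-cresol) in its 4,4' form, a phenolic antioxidant with a sulfur bridge that is written TBBC here, at 300 mg/kg/day for 4 weeks. In the control group 3 rats received corn oil, the vehicle, for 4 weeks. All rats ate a basal diet, and the submitters describe the replicates as biological.

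A dividing cell passes from G1, where D-type cyclins with Cdk4 or Cdk6 release E2F transcription factors, into S phase, where the MCM helicase opens the DNA and the fork machinery copies it. Cyclin A and cyclin B with Cdk1 then drive mitosis, and the anaphase-promoting complex ends it by having cyclins and securin degraded. E2F factors switch on replication genes at the G1/S border, while the DREAM and MuvB complexes time the mitotic genes in G2 through an element called CHR. The tubule cells of the adult renal cortex divide rarely but can re-enter the cycle after injury. In whole tissue, fewer cells of a type and less RNA per cell cannot be told apart.

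The promoters of replication and mitosis genes differed in the letters counted. The RefSeq promoter table (build GRCr8, 250 bases before to 50 after the gene start) held 34 of the 45 genes. Matches were sought on both strands for TTCCCGC and TTGGCGC, core letters of E2F sites that can share bases with each other, for TTTGAA, the CHR core, and for CCAAT. An E2F core was present in 7 of 11 promoters of replication and deoxynucleotide genes and in 4 of 19 promoters of mitosis genes, against 7.96% of 21851 protein-coding promoters. The CHR letters were present in 1 of the 11 and in 12 of the 19, against 17.1% of protein-coding promoters. CCAAT was present in 7 of the 11 and 16 of the 19, against 38.0%. A match is a description of letters and not a measured binding site. The promoters below are examples from replication genes that were higher in every TBBC rat (Mcm3 and Mcm6). They are joined by examples from mitosis genes whose group means were lower in TBBC (Cdk1 and Prc1). Kif20a, Ccnb1 and Bub1 also had lower means, but their promoters held no CHR letters and are not shown. Cdc20, lower in every TBBC rat, held CHR letters and is not shown either. Capitals mark E2F cores in the promoters of Mcm3 (chr9:30733697-30733996, minus strand) and Mcm6 (chr13:42404303-42404602, minus strand), and CHR and CCAAT letters on either strand in those of Cdk1 (chr20:19265043-19265342, plus strand) and Prc1 (chr1:143659231-143659530, plus strand). Other matches are left in lower case: 1 E2F core (TTGGCGC) in Cdk1, and CCAAT at 3 places in Mcm3 and 2 in Mcm6.
Mcm3: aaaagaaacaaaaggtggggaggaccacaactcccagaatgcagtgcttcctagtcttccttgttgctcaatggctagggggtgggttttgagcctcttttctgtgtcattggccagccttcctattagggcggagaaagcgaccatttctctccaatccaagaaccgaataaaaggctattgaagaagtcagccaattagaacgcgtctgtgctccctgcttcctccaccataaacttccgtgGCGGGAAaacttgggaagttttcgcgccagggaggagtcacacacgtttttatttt
Mcm6: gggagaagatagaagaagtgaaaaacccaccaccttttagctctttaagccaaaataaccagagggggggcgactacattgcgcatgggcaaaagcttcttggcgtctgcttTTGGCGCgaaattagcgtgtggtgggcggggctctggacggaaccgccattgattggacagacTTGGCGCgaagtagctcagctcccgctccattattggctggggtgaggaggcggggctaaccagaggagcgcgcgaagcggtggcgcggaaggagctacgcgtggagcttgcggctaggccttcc
Cdk1: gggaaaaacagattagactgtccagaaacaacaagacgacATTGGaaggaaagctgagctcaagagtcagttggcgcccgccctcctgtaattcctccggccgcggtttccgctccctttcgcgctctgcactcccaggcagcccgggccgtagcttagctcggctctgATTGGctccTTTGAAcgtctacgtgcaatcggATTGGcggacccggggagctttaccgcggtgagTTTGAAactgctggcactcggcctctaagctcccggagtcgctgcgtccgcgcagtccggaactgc
Prc1: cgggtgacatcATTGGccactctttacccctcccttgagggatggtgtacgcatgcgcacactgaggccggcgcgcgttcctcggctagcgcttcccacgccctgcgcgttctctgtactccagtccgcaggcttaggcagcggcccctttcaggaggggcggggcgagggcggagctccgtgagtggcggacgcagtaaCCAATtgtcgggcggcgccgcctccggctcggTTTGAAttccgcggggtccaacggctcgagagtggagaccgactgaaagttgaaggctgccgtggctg

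Values are log2 of the processed signal relative to the array's 75th percentile, so 0 is the level of the 75th percentile probe. The 75th percentile itself ran from 861 to 982 in TBBC rats and from 995 to 1038 in vehicle rats, and 67.1% to 70.9% of probes lay well above background. Slide 1, read in scan 1, held TBBC 1 and the 3 vehicle arrays, and slide 2, read in scan 2, held the other two TBBC arrays. Every one of 12 proximal tubule markers was well above background on all 6 arrays. Leukocyte markers stood apart in TBBC 3, as given below. The injured tubule marker Havcr1 had 1.33, 3.83 and 0.99 in TBBC rats, against -4.49, -4.12 and -4.68 in vehicle rats.

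None of the 41 genes tested passed an adjusted p of 0.05 in limma, where 0.531% of 32956 transcripts did. At an unadjusted p under 0.05 there were 6 higher and 5 lower in TBBC, against 9.55% higher and 10.4% lower (20.0% in all) of all transcripts. The group means leaned in different directions by role. Of 8 replication fork genes, Gins2 passed the filter on dim probes only through TBBC, where it was high, and the other 7 of 7 also had higher means in TBBC. Mitosis genes had lower means in 19 of 21 cases (18 of 20 without Cenpf, which passed only through vehicle), although TBBC 3 was above the vehicle mean for 14 of the 21. Over all transcripts 46.5% had a higher and 53.5% a lower mean, and the median difference was -0.02. The median difference was 0.23 for 12 replication and deoxynucleotide genes, -0.36 for 21 mitosis genes and -0.08 for 8 G1 genes. It was 0.23 for 11 genes without Gins2 and -0.35 for 20 without Cenpf, and without both genes 5 had an unadjusted p under 0.05 in each direction.

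**Figure D1:**
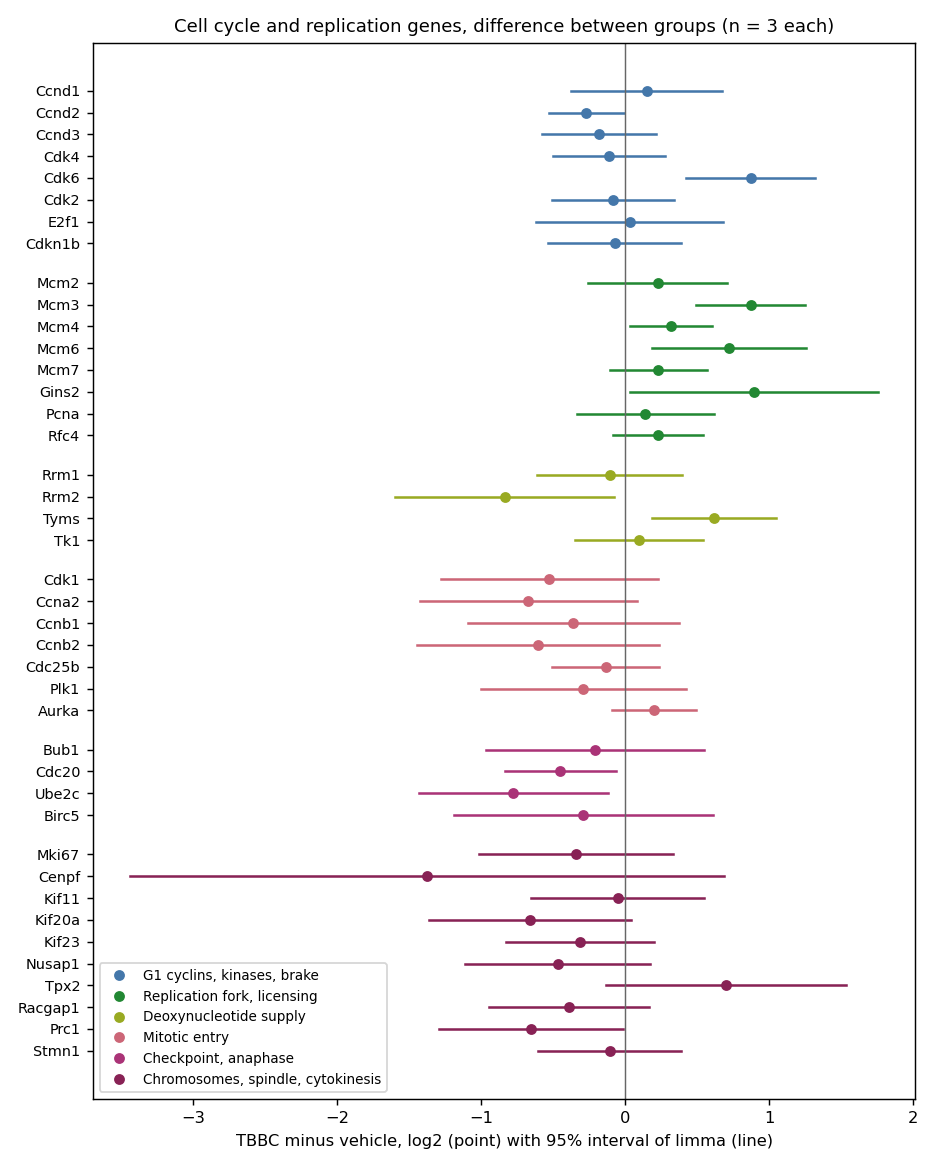
Difference between groups for each of the 41 genes tested, TBBC minus vehicle on the log2 scale (points), with the 95% interval of the limma fit (lines), coloured by role and with 3 rats per group. All 8 replication fork genes lie right of 0 and 19 of 21 mitosis genes lie left of 0, and many intervals cross 0. Gins2, which passed the filter only through TBBC, is among the 8, and Cenpf, which passed only through vehicle, among the 21.

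The licensing helicase was the clearest case among replication genes. Mcm3, a subunit of the MCM2-7 helicase (accession NM_001191805), had 0.50, 0.06 and 0.23 in TBBC rats, against -0.60, -0.44 and -0.78 in vehicle rats. All TBBC rats lay above all vehicle rats. The log2 difference was 0.87 ± 0.16 (SE), or 1.83-fold, with an adjusted p of 0.0741 in limma, so it did not pass. Its 4 probes gave differences from 0.78 to 0.91. The dimmest, at 0.81, passed the filter only through TBBC, and the range was the same without it. Under 2 of 22 alternatives the gene passed, at 0.0496 with normexp background correction and at 0.0391 with a trended and robust variance prior, and the adjusted p reached 0.256 under the others.

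Mcm6, another helicase subunit, was at -2.82, -3.08 and -3.05 in TBBC rats and at -3.42, -3.52 and -4.18 in vehicle rats. The groups did not overlap, and vehicle 3 was the lowest array. The log2 difference was 0.72 ± 0.22 (limma, adjusted p = 0.157). Mcm4 had -0.17, -0.25 and -0.40 in TBBC rats, against -0.55, -0.51 and -0.72 in vehicle rats. These did not overlap either, at a smaller log2 difference of 0.32 ± 0.12 (adjusted p = 0.208). The 3 tested Mcm4 probes gave differences from 0.32 to 0.95, the brightest one the smallest. The probe at 0.95 passed the filter only through TBBC, and the remaining probe gave 0.76.

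The other 2 helicase subunits overlapped between groups. Mcm2 had -0.06, -0.79 and -0.63 in TBBC rats, against -0.67, -0.74 and -0.75 in vehicle rats, so that TBBC 1 stood well above all other arrays. Mcm7 had 1.99, 1.79 and 1.55 in TBBC rats, against 1.48, 1.56 and 1.61 in vehicle rats. Their log2 differences were 0.22 ± 0.20 for Mcm2 and 0.23 ± 0.14 for Mcm7, and 0.010 for Mcm2 and 0.12 for Mcm7 without TBBC 1. No named probe was matched to Mcm5.

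Gins2, part of the GINS complex that activates the helicase, was at -4.34, -5.28 and -5.04 in TBBC rats and at -6.38, -5.71 and -5.25 in vehicle rats. It was well above background on 3 TBBC arrays and 1 vehicle array, so it entered the test only through the group where it was high. Its log2 difference was 0.89 ± 0.36. Pcna, the sliding clamp of the polymerases, had 1.61, 2.02 and 1.44 in TBBC rats, against 1.65, 1.72 and 1.28 in vehicle rats, with a 95% interval of the difference from -0.33 to 0.62. Rfc4, a subunit of the clamp loader, had -0.87, -1.17 and -0.82 in TBBC rats, against -1.13, -1.23 and -1.18 in vehicle rats. Its difference was 0.23 ± 0.13 on the log2 scale, and TBBC 2 lay inside the vehicle range.

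Deoxynucleotide supply was split. Tyms, thymidylate synthase, had -0.12, 0.15 and -0.22 in TBBC rats, against -0.43, -0.64 and -0.98 in vehicle rats. All TBBC rats were above all vehicle rats, with a log2 difference of 0.62 ± 0.18 (limma, adjusted p = 0.145). Rrm2, the regulated subunit of ribonucleotide reductase, lay on the other side, with -0.37, -0.44 and 0.42 in TBBC rats and 1.05, 0.86 and 0.21 in vehicle rats. Its log2 difference was -0.84 ± 0.31 (adjusted p = 0.214), and TBBC 3 lay within the vehicle range. Rrm1, the large subunit, was at -0.94, -1.70 and -1.13 in TBBC rats and -1.04, -1.15 and -1.25 in vehicle rats. Tk1, thymidine kinase 1, was at 0.23, 0.83 and 0.74 in TBBC rats and 0.63, 0.50 and 0.37 in vehicle rats. Both groups overlapped for these 2 genes, and probes of each gene disagreed in sign.

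**Figure D2:**
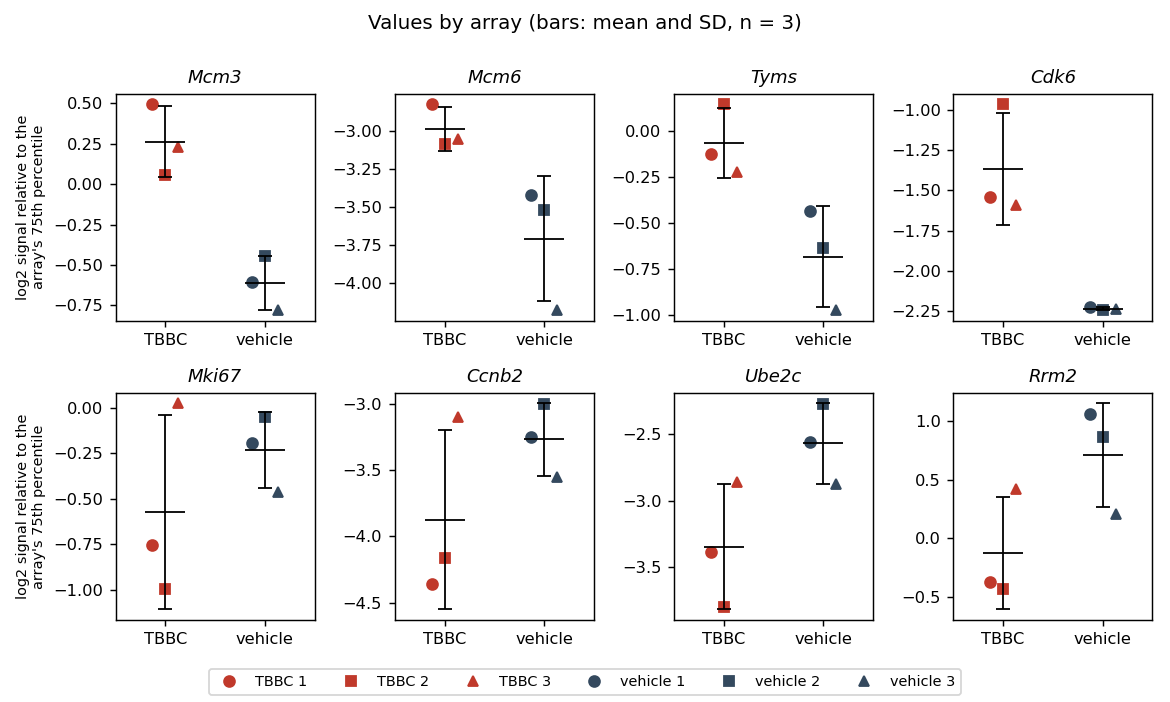
Log2 signal relative to the array's 75th percentile for 8 genes, 1 point per rat (circle, square and triangle for replicates 1, 2 and 3), with mean and SD of 3 rats. TBBC lies above vehicle on every array for Mcm3, Mcm6, Tyms and Cdk6, while for Mki67, Ccnb2, Ube2c and Rrm2 the TBBC 3 triangle lies above the other TBBC points.

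Of the 8 replication fork genes, 7 lay above the highest vehicle array in TBBC 1, 5 in TBBC 2 and 6 in TBBC 3. Over all transcripts these shares were 33.2%, 34.4% and 34.3%. Gins2, which passed the filter only through TBBC, is among the 8 and lay above the highest vehicle array in TBBC 1 and TBBC 3. The groups did not overlap in 4 of the 12 replication and deoxynucleotide genes, all of them higher in TBBC (Mcm3, Mcm4, Mcm6 and Tyms), where 13.1% of all transcripts had every TBBC array above every vehicle array and 15.2% below. As deviations from the vehicle mean, the median of the 12, Gins2 included, was 0.43 in TBBC 1, 0.34 in TBBC 2 and 0.21 in TBBC 3. It was 0.08, 0.06 and -0.13 in vehicle 1 to 3. Within the shared slide, where TBBC 1 is the only treated array, the median difference was 0.43 in place of 0.23.

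G1 genes showed no common direction. Of the 8 tested, 1 gene was above vehicle without overlap (Cdk6) and 1 below (Ccnd2). These counts were near the shares over all transcripts, 13.1% above and 15.2% below. Cdk6, a partner kinase of D-type cyclins (accession NM_001191861), had -1.54, -0.96 and -1.59 in TBBC rats, against -2.23, -2.25 and -2.24 in vehicle rats. Every TBBC rat was above the narrow vehicle range. The log2 difference was 0.87 ± 0.18, or 1.83-fold, and it did not pass (limma, adjusted p = 0.0911, with 0.0561 to 0.343 over the alternatives). The second Cdk6 probe gave 0.61.

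Ccnd2, cyclin D2, lay below the vehicle range in every TBBC rat, at -1.02, -1.04 and -1.12 against -0.92, -0.69 and -0.76 in vehicle rats. The difference was small, -0.27 ± 0.11 on the log2 scale (limma, adjusted p = 0.243). Ccnd1, cyclin D1, was at 3.10, 3.07 and 2.35 in TBBC rats and 2.77, 2.67 and 2.63 in vehicle rats. TBBC 1 and TBBC 2 were above the vehicle range and TBBC 3 was below it. Ccnd3, cyclin D3, had 0.53, 0.71 and 0.95 in TBBC rats, against 1.01, 1.05 and 0.67 in vehicle rats, and the groups overlapped.

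The remaining G1 genes had intervals that spanned 0. Cdk4, the other D-cyclin kinase, was at 2.43, 1.86 and 2.14 in TBBC rats and 2.30, 2.22 and 2.24 in vehicle rats, a difference of -0.11 with an interval from -0.50 to 0.28. Cdk2, the kinase of cyclins E and A, was at -0.67, -0.99 and -0.36 in TBBC rats and -0.66, -0.61 and -0.51 in vehicle rats. E2f1, the founding member of the E2F activators, was at -0.73, -1.64 and -1.66 in TBBC rats and -1.24, -1.39 and -1.5 in vehicle rats. By its brightest probe TBBC 1 was above the vehicle range of E2f1, and the other TBBC arrays were below it. The brightest E2f1 probe gave a difference of 0.03 and the next one 0.36. In the probe at 0.36 TBBC 2 and TBBC 3 lay inside the vehicle range. The dimmest tested probe, at -0.03, passed the filter only through vehicle. Cdkn1b encodes p27, a brake on cyclin-dependent kinases, and had 1.06, 1.03 and 1.34 in TBBC rats, against 1.59, 1.05 and 1.01 in vehicle rats. The interval of its difference ran from -0.54 to 0.39. The median of the 8 G1 genes was near 0 and took the opposite sign, at 0.03 without TBBC 2, 0.01 without vehicle 1 and 0.05 within the shared slide.

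Of 7 genes of mitotic entry, 4 lay below the vehicle range in TBBC 1, 5 in TBBC 2 and 1 in TBBC 3. The shares over all transcripts were 35.9%, 41.8% and 37.0%. Cdk1, the kinase that drives mitosis, had -0.33, -0.61 and 0.36 in TBBC rats, against 0.49, 0.64 and -0.13 in vehicle rats. Ccna2, cyclin A2, had -2.86, -2.75 and -1.85 in TBBC rats, against -1.66, -1.58 and -2.19 in vehicle rats. For both genes TBBC 3 lay inside the vehicle range and the other TBBC arrays lay below it.

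The B cyclins, which activate Cdk1, gave a similar picture. Ccnb1 was at -3.26, -3.68 and -2.71 in TBBC rats and -2.81, -2.49 and -3.28 in vehicle rats. Ccnb2 was at -4.36, -4.16 and -3.10 in TBBC rats and -3.25, -3.005 and -3.55 in vehicle rats. TBBC 2 alone lay below the vehicle range of Ccnb1, and TBBC 1 and TBBC 2 did for Ccnb2. Log2 differences were -0.53 ± 0.31 for Cdk1, -0.67 ± 0.31 for Ccna2, -0.36 ± 0.30 for Ccnb1 and -0.60 ± 0.35 for Ccnb2, with adjusted p-values of 0.294 to 0.554 in limma. Single arrays moved these sizes. Without TBBC 2 they were -0.32 for Cdk1 and -0.13 for Ccnb1, and without TBBC 1 -0.36 for Ccnb2. Without TBBC 3 they were -0.81 for Cdk1, -0.61 for Ccnb1 and -0.99 for Ccnb2.

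Other regulators of entry varied. Plk1, polo-like kinase 1, had -1.43, -1.68 and -0.55 in TBBC rats, against -0.95, -0.78 and -1.06 in vehicle rats, so TBBC 3 was the highest of all arrays and TBBC 2 the lowest. Its difference of -0.29 was -0.060 without TBBC 2 and -0.62 without TBBC 3. Cdc25b, a phosphatase that activates Cdk1, had -0.46, -0.48 and -0.87 in TBBC rats, against -0.62, -0.36 and -0.42 in vehicle rats. For it TBBC 3 was the lowest array. Its 3 tested probes gave differences from -0.44 to -0.14, the brightest one the smallest. In the dimmer probes, at -0.28 and -0.44, all TBBC arrays lay below all vehicle arrays. Aurka, a centrosome kinase, was on the higher side in TBBC, at -0.61, -0.82 and -0.90 against -0.995, -0.89 and -1.06 in vehicle rats, and TBBC 3 only just entered the vehicle range.

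Among checkpoint and anaphase genes Cdc20 was lower in every TBBC rat. Cdc20 activates the anaphase-promoting complex and had -0.67, -1.13 and -0.65 in TBBC rats, against -0.34, -0.29 and -0.47 in vehicle rats. The log2 difference was -0.45 ± 0.16, 1.37-fold lower in TBBC, and did not pass (limma, adjusted p = 0.199). It was -0.29 without TBBC 2. Ube2c, the ubiquitin-conjugating enzyme of that complex, had -3.38, -3.80 and -2.86 in TBBC rats, against -2.56, -2.27 and -2.88 in vehicle rats. TBBC 3 was just above the lowest vehicle array, and the log2 difference was -0.78 ± 0.27 (adjusted p = 0.194).

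Bub1, a spindle checkpoint kinase, was at -2.57, -3.12 and -1.91 in TBBC rats and -2.18, -2.20 and -2.60 in vehicle rats, and TBBC 3 was its highest array. Birc5 encodes survivin of the chromosomal passenger complex and was at -1.999, -1.89 and -0.71 in TBBC rats and -1.10, -1.61 and -1.02 in vehicle rats. TBBC 3 was again the highest and TBBC 1 and TBBC 2 the lowest, and the difference of -0.29 was -0.70 without TBBC 3. Aurkb, the kinase of the same complex, was well above background on 0 TBBC arrays and 1 vehicle array and was not tested. No named probe was matched to Bub1b or to Top2a.

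**Figure D3:**
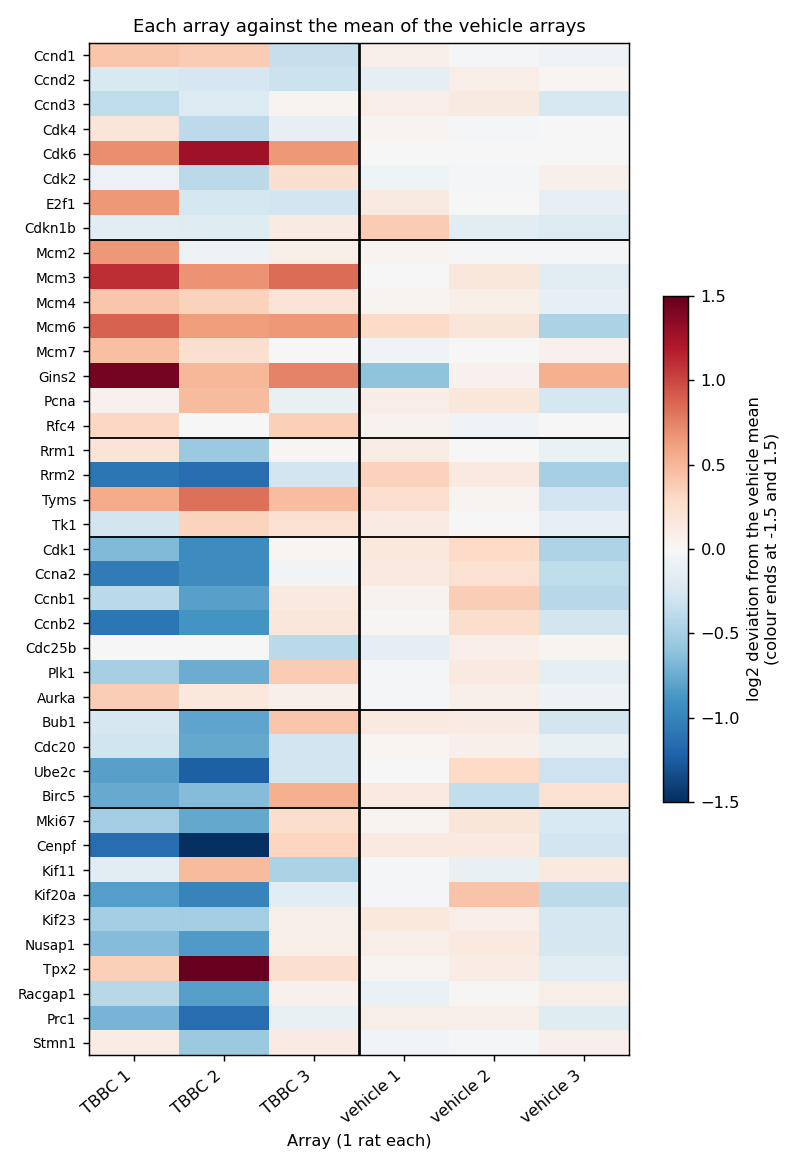
Log2 deviation of each array (columns, 3 TBBC and 3 vehicle rats) from the mean of the vehicle arrays for the 41 genes tested (rows, with lines between roles). The colour scale ends at -1.5 and 1.5, which cuts Cenpf at -3.30 and Tpx2 at 1.51 in TBBC 2. Most mitosis genes are blue in TBBC 1 and TBBC 2 and pale or red in TBBC 3, while most MCM genes are red in all 3 TBBC rats.

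Mki67, which encodes the proliferation antigen Ki-67 (accession NM_001271366), had -0.75, -0.998 and 0.03 in TBBC rats, against -0.19, -0.05 and -0.46 in vehicle rats. TBBC 1 and TBBC 2 were below the vehicle range and TBBC 3 was above it. The log2 difference was -0.34 ± 0.28 (limma, adjusted p = 0.544), with -0.13 without TBBC 2 and -0.64 without TBBC 3. All 5 of its probes gave lower means in TBBC, from -0.57 to -0.25.

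Spindle and cytokinesis genes repeated this order of arrays in several cases. Prc1, a bundler of midzone microtubules, had -2.61, -3.06 and -2.03 in TBBC rats, against -1.82, -1.83 and -2.09 in vehicle rats. Kif20a, a kinesin of the midzone, had -2.43, -2.61 and -1.78 in TBBC rats, against -1.64, -1.19 and -2.01 in vehicle rats. Nusap1, a spindle microtubule binder, had -2.47, -2.67 and -1.73 in TBBC rats, against -1.71, -1.67 and -2.07 in vehicle rats. In all 3 genes TBBC 1 and TBBC 2 were the lowest arrays and TBBC 3 lay inside the vehicle range.

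Kif23 and Racgap1 form the centralspindlin complex. Kif23 was at -2.91, -2.92 and -2.30 in TBBC rats and -2.24, -2.30 and -2.65 in vehicle rats. Racgap1 was at -2.78, -3.18 and -2.29 in TBBC rats and -2.47, -2.35 and -2.27 in vehicle rats. In its dimmer tested probes, with differences of -0.31 and -0.53, all TBBC arrays lay below all vehicle arrays. Log2 differences were -0.65 ± 0.26 for Prc1, -0.66 ± 0.29 for Kif20a, -0.47 ± 0.27 for Nusap1, -0.31 ± 0.21 for Kif23 and -0.39 ± 0.23 for Racgap1, and none passed. Without TBBC 2 the differences were -0.41 for Prc1, -0.28 for Nusap1 and -0.18 for Racgap1.

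Some spindle genes departed from it. Tpx2, which activates Aurka on the spindle, had -3.11, -1.95 and -3.23 in TBBC rats, against -3.43, -3.35 and -3.62 in vehicle rats. All TBBC rats were above all vehicle rats and TBBC 2 was the highest, with a log2 difference of 0.70 ± 0.34 (limma, adjusted p = 0.318). Without TBBC 2 it was 0.30, and on the shared slide 0.35. Kif11, a motor that separates spindle poles, was at 2.02, 2.66 and 1.70 in TBBC rats and 2.14, 2.07 and 2.32 in vehicle rats. Its 3 probes ranged from -0.05 to 0.81 in difference, so its direction depended on the probe. The dim probe at 0.81 passed the filter only through TBBC, where it was high, and the remaining probe gave 0.30. Stmn1, stathmin, which binds tubulin in dividing and other cells, had 3.89, 3.22 and 3.90 in TBBC rats, against 3.73, 3.75 and 3.85 in vehicle rats.

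Cenpf, a kinetochore protein, had -5.67, -7.83 and -4.20 in TBBC rats, against -4.38, -4.38 and -4.81 in vehicle rats. It was dim, being well above background on 2 TBBC and 3 vehicle arrays, and entered the test only through the vehicle group. Its log2 difference of -1.38 ± 0.85 had an interval from -3.44 to 0.68. It was -0.41 without TBBC 2, the lowest array, and the gene was above the vehicle range in TBBC 3.

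Of the 21 mitosis genes tested, 15 lay below the lowest vehicle array in TBBC 1 and 17 in TBBC 2, but 3 in TBBC 3. Over all transcripts these shares were 35.9%, 41.8% and 37.0%. Cenpf, which passed the filter only through vehicle, is among the 21 and lay below the lowest vehicle array in TBBC 1 and TBBC 2. In TBBC 3, 7 of the 21 lay above the highest vehicle array and 11 lay within the vehicle range. Their median was -0.51, -0.79 and 0.09 in TBBC 1, 2 and 3, against 0.04, 0.13 and -0.23 in vehicle 1, 2 and 3. The median difference of -0.36 was -0.62 without TBBC 3 and -0.21 without TBBC 2, and -0.51 within the shared slide. By the brightest probe, the groups failed to overlap in 2 of the 21 genes, Cdc20 below and Tpx2 above, against 28.3% of all transcripts. Dimmer tested probes of Cdc25b and Racgap1 lay below without overlap. A dim probe of Kif11, which passed the filter only through TBBC, lay above.

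Leukocyte marker lists had their highest medians on TBBC 3. The median of 16 tested macrophage and myeloid markers was -0.08, -0.14 and 0.87 in TBBC 1, 2 and 3, against -0.26, 0.09 and 0.18 in vehicle rats, and their summed linear level was 112, 124 and 246 in TBBC rats, against 117 to 148 in vehicle rats. The median of 14 tested lymphocyte markers was -0.38, -0.54 and 0.68 in TBBC rats, against -0.24, 0.09 and 0.12 in vehicle rats. Their summed level was 2.95, 2.67 and 5.51 in TBBC rats, against 3.00 to 3.86 in vehicle rats. Among the lymphocyte markers Cd2, Cd22 and Cd79b passed the filter only through vehicle, and among the myeloid markers Itgam only through TBBC. The medians and sums include these genes. Cd163 of the 17 listed myeloid markers and Cd5 of the 17 listed lymphocyte markers had probes too dim to test, and Ptprc was tested. Fibroblast and smooth muscle markers (9 of 11 tested) summed to 25.9, 19.1 and 43.6 in TBBC rats, against 23.2 to 27.3 in vehicle rats. Neutrophil markers (4 of 8 tested, with Elane well above background on no array) summed to 2.30, 2.85 and 5.58 in TBBC rats, against 2.62 to 3.03 in vehicle rats. Proximal tubule markers (12 of 12 tested) had medians of -0.34, -0.22 and 0.04 in TBBC 1, 2 and 3, against -0.02 to 0.03 in vehicle rats. In TBBC 1, 11 of the 12 lay below all vehicle arrays, against 35.9% of all transcripts. Over all 3 TBBC arrays 4 of the 12 were below vehicle without overlap, against 15.2% of all transcripts. Endothelial markers (7 of 9 tested) had medians of -0.29, -0.24 and -0.35, against -0.05 to 0.06 in vehicle rats. Of the 7, 5 were below vehicle without overlap, against the same 15.2%. None of the genes in either list passed. The part of all these markers in the mitosis gene values was not tested. TBBC 2 and TBBC 3, with the lowest and the highest mitosis median among TBBC rats, were both on slide 2. That slide held no vehicle array, so slide and treatment cannot be told apart on it.

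**Figure D4:**
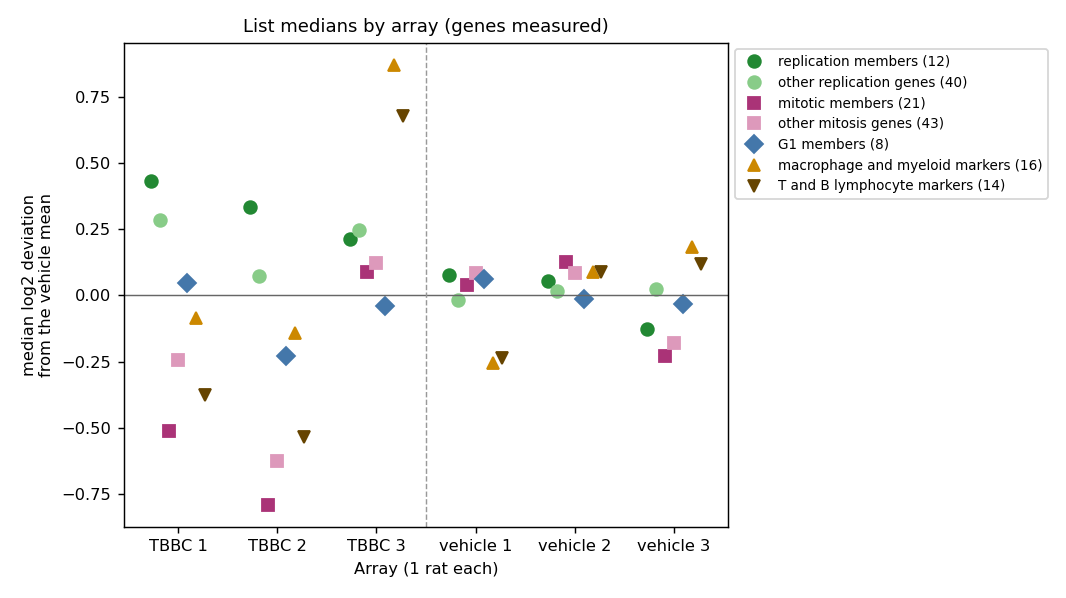
Median log2 deviation from the vehicle mean in each array for 7 gene lists (number of genes tested in brackets), 1 array per rat. Mitosis genes are at -0.51 and -0.79 in TBBC 1 and TBBC 2 and at 0.09 in TBBC 3, where both leukocyte lists are highest, and replication genes are above 0 in all 3 TBBC rats.

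Other genes of replication and mitosis, on lists written from textbook knowledge, gave the following counts, and none passed. Of 40 other replication genes tested (47 listed), 30 had higher and 10 lower means in TBBC, with a median difference of 0.24. Cdc6 and Pole passed the filter only through TBBC, and without them 28 were higher and 10 lower, with a median of 0.23. In this list 12 had every TBBC array above every vehicle array and 0 had the reverse, against 13.1% and 15.2% of all transcripts. At an unadjusted p under 0.05 there were 11 of 40, all higher, against 9.55% higher and 10.4% lower of all transcripts. Chaf1b, a subunit of the chromatin assembly factor that follows the fork, had -0.77, -1.15 and -0.61 in TBBC rats, against -1.65, -1.78 and -1.85 in vehicle rats. Its log2 difference was 0.91 ± 0.16 (limma, adjusted p = 0.0733, with 0.0401 to 0.258 over the alternatives). Gins4, another GINS subunit, was at 0.62 ± 0.17, and Gmnn (geminin, which blocks relicensing) was at 0.50 ± 0.13.

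Of 43 other mitosis genes tested (65 listed), 12 had higher and 31 lower means, with a median difference of -0.25. Ska1, Kif2c, Pbk and Cdca2 passed the filter only through vehicle, and without them 12 were higher and 27 lower, with a median of -0.24. At an unadjusted p under 0.05 there were 2 higher and 2 lower of 43, a smaller share than the 20.0% of all transcripts. By rat, the median deviation was -0.24, -0.63 and 0.12 in TBBC 1, 2 and 3. The median was -0.44 without TBBC 3, -0.04 without TBBC 2, -0.16 without vehicle 2 and -0.40 without vehicle 3. Nek2, a centrosome kinase, was lower in every TBBC rat (-0.57 ± 0.11, limma, adjusted p = 0.0765). Its dim signal gave -0.13 with normexp, where the adjusted p was 0.474. The kinesin Kif18a (0.59 ± 0.15) and Pkmyt1, an inhibitory kinase of Cdk1 (0.56 ± 0.19), were higher in every TBBC rat. In this list 3 genes were above and 2 below without overlap, against 13.1% and 15.2% of all transcripts.

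The partners of the G1 genes were mixed too. Of 28 other G1 genes tested (36 listed), 16 had higher and 12 lower means, and none passed. At an unadjusted p under 0.05 there were 5 higher and 2 lower, near the 20.0% of all transcripts. Skp2 and Rbl1, both among the 5, passed the filter only through TBBC, which leaves 3 higher and 2 lower. The E cyclins, which activate Cdk2, parted. Ccne1 had -2.89, -3.30 and -2.80 in TBBC rats, against -3.57, -3.96 and -4.31 in vehicle rats. Ccne2 had -4.78, -4.58 and -4.65 in TBBC rats, against -4.25, -4.02 and -4.28 in vehicle rats. The groups overlapped for neither cyclin, with log2 differences of 0.95 ± 0.23 for Ccne1 and -0.49 ± 0.12 for Ccne2 (limma, adjusted p = 0.111 and 0.116). Over the alternatives the difference ran from 0.58 to 1.14 for Ccne1 and from -0.60 to -0.14 for Ccne2. In limma their adjusted p reached 0.305 for Ccne1 and 0.508 for Ccne2.

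Cks1b, a small subunit that helps degrade p27, had 0.34, 0.62 and -0.20 in TBBC rats, against -0.75, -0.75 and -0.83 in vehicle rats. Its log2 difference was 1.03 ± 0.21 (limma, adjusted p = 0.0878, with 0.0373 to 0.277 over the alternatives). It passed at 0.0373 without TBBC 3 and at 0.0497 with the trended and robust prior. Myc, a transcription factor that promotes G1 progression, had 0.57, 2.88 and 0.55 in TBBC rats, against -0.82, -0.94 and -0.40 in vehicle rats. TBBC 2 was far above the other arrays, and the adjusted p was 0.161.

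Inhibitors of cyclin-dependent kinases did not pass in any of 6 cases (7 listed), and 0 had an unadjusted p under 0.05. Over all transcripts 0.531% passed and 20.0% had such an unadjusted p in limma. With 6 genes, counts of 0 cannot be told apart from these shares. Cdkn1a, which encodes p21 and is a target of p53, had 4.93, 4.96 and 4.78 in TBBC rats, against 4.90, 4.79 and 4.89 in vehicle rats. The interval of its difference ran from -0.22 to 0.28. The 3 members with the smallest p were Cdkn2d at -0.36 ± 0.17, Cdkn2c at -0.44 ± 0.30 and Cdkn2a at -0.13 ± 0.11.

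Of 18 DNA damage checkpoint genes tested (25 listed), 13 had higher and 5 lower means, and none passed in limma. At an unadjusted p under 0.05 there were 4, all higher, where 9.55% of all transcripts were higher and 20.0% had such a p in either direction. Fancd2 passed the filter only through vehicle, which leaves 13 higher and 4 lower. Chek1, the replication checkpoint kinase, was at 0.78 ± 0.22 and the exonuclease Exo1 at 0.40 ± 0.11. Among 19 growth factor ligands and receptors (21 listed) none passed, and 4 higher and 3 lower had an unadjusted p under 0.05, against 20.0% of all transcripts. Egf was 2.51-fold lower in TBBC (limma, adjusted p = 0.0933), Hbegf 1.80-fold higher (0.121) and the receptor Erbb3 1.60-fold lower (0.117). Over the alternatives the adjusted p of Egf ran from 0.0151, without TBBC 1, to 0.287. Its log2 difference of -1.33 was -0.65 on the shared slide.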

How the data were processed

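The authors deposited scanner files of spot intensity from Agilent Feature Extraction, which subtracts background and detrends each array by itself. The version is 10.7.1.1 in the file headers and 10.7 in the submitters' processing notes. They also deposited a value table, a linear ratio of processed signal to a constant per array lying within 0.3% of its 75th percentile, with column medians from 0.107 to 0.114 in TBBC and 0.111 to 0.113 in vehicle rats. No statistical method of the authors is stated in the labels or headers.

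Control spots (1439 of 62976) were removed, and 28206 of 61537 probes were named by accession through a RefSeq table (GRCr8). Coordinates are given for RefSeq promoters alone, since the headers name another build. Processed signals were scaled to each array's 75th percentile and taken to log2. Outlier-flagged spots, up to 9 on an array, were dropped. Testing needed a signal well above background on all unflagged arrays of at least 1 group. Each gene is shown by the brightest of its tested probes. TBBC and vehicle were compared with limma 3.58.1 in R 4.3.3 (lmFit, eBayes, two-sided), adjusting by Benjamini-Hochberg over 32956 transcripts at a threshold of 0.05. Errors given with a log2 difference are standard errors, and 3 arrays per group limit precision. The fit was tested on simulated data. Random slide blocks used statmod 1.5.0. Normexp (offset 50) used the median foreground and background signals.

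The 45 genes and the lists were chosen with earlier results of these data known. The genes named are the 45, the 3 of each other pathway list with the smallest p, and Cdkn1a, Myc and Havcr1. One gene that this rule selects is not reported here. Other genes are named, after their values were seen, for their detection alone. In all, 22 alternatives were tried.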

Additional observations from a re-analysis of the deposited data

How the results depend on the processing

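The number of transcripts past the threshold, 175 in the main analysis, moved widely. It was 761 with normexp (424 higher and 337 lower), 1087 with a trended and robust prior, 52 with no filter on dim probes, 48 with slide as a fixed term and 64 on the shared slide alone, and it ran from 6 to 263 when 1 array was left out. With the replicate number as a block 0 were called; the numbers did not pair the arrays (correlations of -0.0947, 0.0327 and -0.0743, and no array correlated best with its own number). Of the 41 cell cycle genes 1, Mcm3, passed with normexp and 1, the same gene, with the trended and robust prior, and 0 passed when any 1 array was left out. The median difference of replication genes was 0.43 with slide as a fixed term and on the shared slide, and 0.23 to 0.32 with 1 array left out. The left-out ranges were -0.62 to -0.21 for mitosis genes, -0.14 to 0.03 for G1 genes and -0.23 to -0.02 for all 41. Alternatives for the 2 further lists of replication and mitosis genes, and the counts without genes that passed the filter through 1 group, were added after seeing the data. Over 22 alternatives, 13 of 62 named genes changed sign somewhere, all with differences that had not passed. With quantile scaling the Cdkn1a difference was -0.00402. With normexp Kif11 was 0.050, Cdkn2a 0.011 and Cdkn1a -0.034. With the mean of probes Tk1 was -0.021 and Kif11 0.35, and with the dimmest probe E2f1 was -0.031, Cdkn1b 0.0079, Rrm1 0.094, Tk1 -0.14 and Kif11 0.81. The dimmest tested probe of Kif11 passed the filter only through TBBC, and that of E2f1 only through vehicle. With slide as a fixed term or on the shared slide Cdk4 was 0.18, Rrm1 0.21, Tk1 -0.27, Cdc25b 0.0081 and Stmn1 0.11. With 1 array left out the difference ran from -0.26 to 0.029 for Cdk4, -0.24 to 0.076 for Cdk2, -0.27 to 0.19 for E2f1, -0.18 to 0.12 for Cdkn1b, -0.023 to 0.27 for Pcna, -0.27 to 0.11 for Rrm1, -0.021 to 0.28 for Tk1, -0.52 to 0.084 for Bub1, -0.32 to 0.16 for Kif11, -0.23 to 0.12 for Stmn1 and -0.0030 to 0.087 for Cdkn1a. The causes were not tested. With 3 arrays per group, dim genes such as Cenpf and Gins2 rest on signals near background.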

Other observations

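The spread among TBBC arrays was wide for mitosis genes. The TBBC arrays lay on slides 1 and 2 and all vehicle arrays on slide 1. Spread between rats and between slides cannot be told apart in TBBC. The standard deviation was larger in TBBC than in vehicle rats for 21 of 21 mitosis genes tested, where it was larger for 74.3% of all transcripts. The median standard deviation of these genes was 0.49 in TBBC rats and 0.22 in vehicle rats on the log2 scale, against 0.23 and 0.13 over all transcripts. Cenpf, which passed the filter only through vehicle, is among the 21, with 1.82 in TBBC and 0.25 in vehicle rats. For 43 other mitosis genes the standard deviation was larger in TBBC rats in 36 cases, or 83.7%. Ska1, Kif2c, Pbk and Cdca2, which passed the filter only through vehicle, are among the 43. It was larger in TBBC rats for Kif2c, Pbk and Cdca2 and smaller for Ska1. For the 12 replication and deoxynucleotide genes it was larger in TBBC rats in 9 cases, with medians of 0.26 and 0.15. Gins2, which passed the filter only through TBBC, is among the 12, with 0.49 in TBBC and 0.57 in vehicle rats.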
